A study of Homo sapiens with 8 samples.

Results

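The imatinib response shared by K562 and KBM5 is the set of genes that moved the same way, by at least 2-fold, in each of 4 disjoint array pairs with and without the drug. K562 and KBM5 are established human cell lines from chronic myeloid leukaemia in blast crisis, and both carry the BCR-ABL1 fusion kinase that imatinib inhibits. The study put each line through 4 treatments and measured 1 array for each, 8 arrays in all. Control cells had no drug. OR21 cells received OR21, named OR-2100 and a demethylating agent in the series' title, at 100 nM for 3 days. IM cells received imatinib at 1000 nM, and RNA was taken 24 hours later. Combination cells received OR21 for 3 days and then imatinib. All groups were grown in RPMI-1640 with fetal bovine serum. The pairs were IM minus control and combination minus OR21 in each line, so no array entered more than 1 pair. A gene was counted as shared when its log2 intensity differed by at least 1 in the same direction in all 4 pairs and its brighter 4 arrays all exceeded background. Background was, for each array, the level that 95% of its 612 negative-control probe sets stay under.

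Of 17687 measured genes, 345 met this rule, 71 higher with imatinib (0.401%) and 274 lower (1.55%). Of all genes, 9227 were at background on all 8 arrays and could not meet the rule, so the shares over all genes are low marks for lists of expressed genes. A fit across all genes (limma, line and treatment as terms, Benjamini-Hochberg adjusted p under 0.05) called 487 genes higher (2.75%) and 862 lower (4.87%) with imatinib, 1349 in all (7.63%), and it called all 345 shared genes. That count follows from the rule, which used the same differences, so the imatinib differences of the shared genes are given as a description with no test. Each line and treatment had 1 array, and nothing in the labels names separate cultures, so scatter between repeats of a group was not measured. The errors and p-values of the fit over both lines rest on how treatments differed between the lines, any technical scatter included. Those of the fit per line, used for line differences, rest on how far the drugs departed from adding on the log2 scale. In the sentences below, the first of each pair of intensities is from the array without OR21 (control or IM) and the second from the array with it (OR21 or combination). Differences are on the log2 scale, with minus without imatinib. An error after ± is the standard error of the fit over both lines or, for a difference between the lines, of the fit per line.

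As background, BCR-ABL1 keeps several signalling routes active at once. STAT5 drives the genes of cytokine feedback and survival, the RAS and ERK route drives ETS factors and its own inhibitors, and PI3K and AKT keep FOXO transcription factors out of the nucleus. All of them feed into MYC, which binds DNA with MAX at the E-box CACGTG and raises genes for ribosome assembly, nucleotide synthesis and nutrient uptake. When FOXO factors return to the nucleus they raise genes of growth arrest and catabolism, and the forkhead motif GTAAACA is their usual site.

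The arrays were alike in overall brightness, with medians from 77.8 to 83.3, and 5874 to 7083 genes stood above background on an array. The median imatinib difference over all genes was 0.06. The lines kept their identity: all 4 measured erythroid markers (ALAS2, GATA1, HBZ and KLF1) were above background on K562 arrays and none on KBM5 arrays, while 4 of 5 granulocytic and monocytic markers (CSF1R, MPO, PRTN3 and SPI1) were above background in KBM5 and SPI1 alone in K562. The summed erythroid marker intensity in K562 was 70053 to 213773 without imatinib and 555747 to 579543 with it, and the megakaryocytic sum was 199.5 to 324.6 without and 3914 to 5017 with it. The epithelial markers EPCAM and KRT19 were above background in K562, where their list summed to 12669 to 14755 without and 12566 to 13329 with imatinib. The granulocytic and monocytic sum in K562 was 397.4 to 551.3 without and 241.2 to 300.1 with imatinib, and the lymphoid sum was 724.8 to 1013 without and 320.2 to 328.4 with it. In K562 TUBB1 was the only one of 4 measured megakaryocytic markers above background on any array, and CD3D the only one of 5 lymphoid markers. With SPI1 alone in the granulocytic and monocytic list, each of these 3 sums in K562 held 1 gene above background. Of the other marker genes, CD79A in KBM5 and COL1A2 in both lines were above background on at least 1 array. The part of lineage change in the shared response was not tested. The arrays measured bulk RNA, in which fewer cells of a type and less RNA per cell cannot be told apart.

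The shared genes were a minority of what each line did. In K562, 355 genes were higher by at least 2-fold in both pairs (2.01% of all genes) and 685 lower (3.87%). In KBM5 the counts were 700 (3.96%) and 981 (5.55%). The 71 shared higher genes were 20% of the K562 set and 10.1% of the KBM5 set, and the 274 shared lower genes were 40% and 27.9%. Only 5 of the higher genes of K562 and 12 of its lower genes passed the same limit in the opposite direction in KBM5. Over the 4660 genes above background on all 8 arrays, the mean differences of the lines correlated at r = 0.47, while the 2 pairs within K562 correlated at 0.85 and those within KBM5 at 0.89. These correlations describe genes within 1 set of arrays and carry no p. The median rise of the 71 genes was 1.73 and 1.60 in the K562 pairs and 1.87 and 1.67 in the KBM5 pairs. The median difference of the 274 lower genes was -1.68 and -1.55 in K562 and -1.95 and -1.84 in KBM5. In 26 lower and 6 higher genes all 4 pairs differed by at least 4-fold, that is 2 log2.

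**Figure D1:**
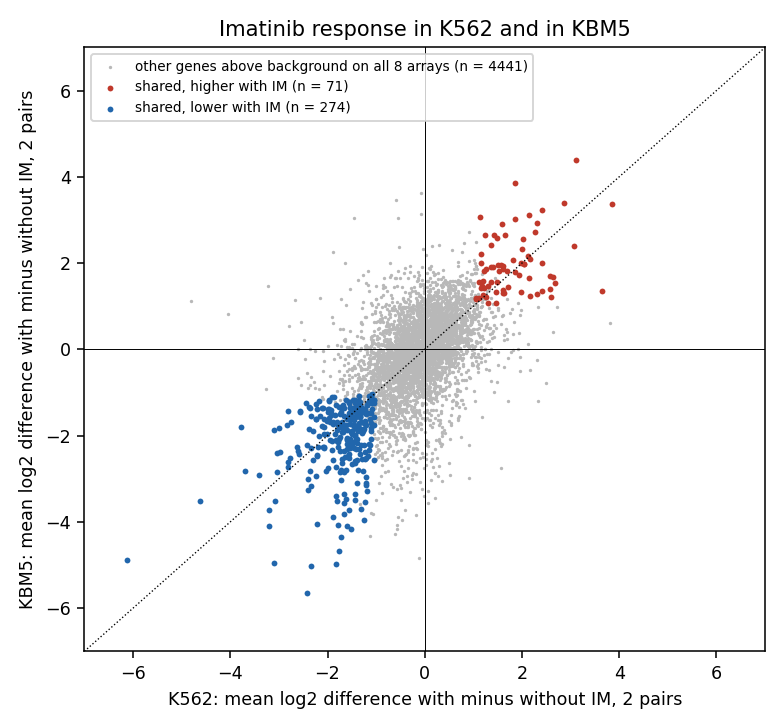
Mean log2 difference with minus without imatinib in K562 (horizontal axis) against KBM5 (vertical axis), each the mean of 2 array pairs. Red points are the 71 shared higher genes, blue points the 274 shared lower genes and grey points the other genes above background on all 8 arrays; the dotted line marks equal differences.

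The lower genes with the largest fall in their weakest pair included nutrient carriers, enzymes and nucleolar proteins. The first by its smallest pair difference was SRM, spermidine synthase, which makes the polyamine spermidine. SRM read 13419 and 20572 without and 1462 and 2239 with imatinib in K562, and 5201 and 8658 without and 308 and 838 with it in KBM5. Every reading with imatinib lay below every reading without it in either line, and the mean difference was -3.46 ± 0.22. The rule and the ranking used the same differences, so such a separation is a description. SLC2A3, the glucose transporter GLUT3, read 29006 and 12896 without and 432 and 177 with imatinib in K562, and 4698 and 1495 without and 46.6 and 171 with it in KBM5. The differences were -6.07 and -6.19 in K562 and -6.65 and -3.13 in KBM5, and with imatinib SLC2A3 was above background on the K562 IM array alone. SLC2A14, a near-identical copy of SLC2A3, read 41825 and 23641 without and 1273 and 1273 with imatinib in K562, and 6824 and 2474 without and 385 and 334 with it in KBM5, and probes of the pair may share transcripts, so its fall is not a separate observation.

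SLC7A5, the LAT1 carrier of large neutral amino acids, read 7009 and 4565 without and 495 and 878 with imatinib in K562, and 5381 and 3321 without and 87.9 and 211 with it in KBM5. SLC7A1, a carrier of arginine and lysine, read 1164 and 1278 without and 231 and 234 with imatinib in K562, and 1878 and 1678 without and 186 and 188 with it in KBM5. LDHA, which turns pyruvate into lactate, read 82676 and 126751 without and 15683 and 26319 with imatinib in K562, and 68215 and 63446 without and 6228 and 8553 with it in KBM5, and remained among the brighter genes of both lines after its fall. In these carriers and in LDHA the groups with and without imatinib did not overlap over the 8 arrays, again a description of genes chosen by their differences. DDX21, an RNA helicase of the nucleolus, read 17733 and 16418 without and 2392 and 3369 with imatinib in K562, and 7850.4 and 6457 without and 1351 and 1293 with it in KBM5. NOP16, another nucleolar protein, read 5339.5 and 5099 without and 464 and 525 with imatinib in K562, and 1610.5 and 2705 without and 193 and 398 with it in KBM5. POLR3G, a subunit of RNA polymerase III, read 1740.4 and 1324 without and 183 and 187 with imatinib in K562, and 395 and 296 without and 49.4 and 46.3 with it in KBM5. DDX21 fell by similar amounts in the 4 pairs, -2.89 and -2.29 in K562 and -2.54 and -2.32 in KBM5. NOP16 differed by -3.52 and -3.28 in K562 and -3.06 and -2.77 in KBM5. With imatinib NOP16 and SLC7A5 were at background on the KBM5 IM array and SLC7A1 on both KBM5 arrays. POLR3G was at background on all arrays with imatinib except the K562 combination. The size of those falls is uncertain.

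The other genes among the first 15 lower were membrane proteins and transcription factors. WT1, a zinc finger transcription factor expressed in leukaemic blasts, read 639 and 426 without and 74.1 and 79.4 with imatinib in K562, and 987 and 1481 without and 178 and 252 with it in KBM5. LAPTM4B, a lysosomal membrane protein, read 6277 and 5917 without and 1009 and 586 with imatinib in K562, and 3864 and 4318 without and 743 and 839.7 with it in KBM5. With imatinib WT1 was above background on the KBM5 combination array alone, and LAPTM4B on all 4 arrays. LRP8, a lipoprotein receptor, and SLC39A14, a zinc and iron importer, were at background on all 4 arrays with imatinib, so only bounds can be given for them. A bound sets the bright arrays' mean log2 value against the dim arrays' mean, with each dim array raised to its background. LRP8 read 730.5 and 731 without and 71.3 and 87.3 with imatinib in K562, and 1429 and 1347 without and 91.2 and 72.1 with it in KBM5, which is at least 5.11-fold lower with imatinib. SLC39A14 read 441 and 515 without and 28.2 and 47.4 with imatinib in K562, and 1154 and 788 without and 165 and 109 with it in KBM5, at least 3.42-fold lower. CHRNA5, a nicotinic receptor subunit, was at least 1.61-fold lower and ETV5, described below, at least 2.11-fold lower.

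Promoter sequences were read for the shared genes because the growth genes among them are known MYC targets. The window was 250 bases before to 50 bases after the first start listed by RefSeq (GRCh38.p14), and it was available for 232 of the 274 lower genes, 57 of the 71 higher genes and 14250 genes in all. The letters CACGTG, which read the same on both strands, were present in 51 of 232 lower promoters (21.98%), in 5 of 57 higher promoters (8.77%), in 430 of 3795 promoters of other genes above background on all 8 arrays (11.3%) and in 8.69% of all promoters. With any listed start in place of the first, the shares were 25% of lower genes, 10.5% of higher genes and 13.9% of the other genes above background. The 4 promoters below show where the E-box, in capitals, lies in genes of polyamine synthesis, amino acid uptake, glycolysis and mitochondrial protein folding. Each is the 250 bases before the start, 5′ to 3′.
SRM (chr1:11060019-11060268, minus strand): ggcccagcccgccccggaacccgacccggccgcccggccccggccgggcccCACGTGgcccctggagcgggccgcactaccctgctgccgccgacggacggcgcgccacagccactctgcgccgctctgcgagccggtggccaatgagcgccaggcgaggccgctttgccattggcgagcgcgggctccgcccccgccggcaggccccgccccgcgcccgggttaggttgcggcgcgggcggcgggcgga
SLC7A5 (chr16:87869508-87869757, minus strand): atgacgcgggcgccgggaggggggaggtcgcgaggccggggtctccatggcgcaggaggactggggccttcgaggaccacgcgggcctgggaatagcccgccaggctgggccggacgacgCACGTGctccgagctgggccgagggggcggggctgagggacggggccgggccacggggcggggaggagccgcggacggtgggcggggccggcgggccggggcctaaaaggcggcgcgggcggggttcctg
LDHA (chr11:18394313-18394562, plus strand): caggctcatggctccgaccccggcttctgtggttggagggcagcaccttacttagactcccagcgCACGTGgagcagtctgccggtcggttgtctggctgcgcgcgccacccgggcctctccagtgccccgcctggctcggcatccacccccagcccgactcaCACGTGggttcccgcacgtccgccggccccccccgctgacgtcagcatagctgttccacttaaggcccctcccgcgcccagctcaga
HSPE1 (chr2:197500129-197500378, plus strand): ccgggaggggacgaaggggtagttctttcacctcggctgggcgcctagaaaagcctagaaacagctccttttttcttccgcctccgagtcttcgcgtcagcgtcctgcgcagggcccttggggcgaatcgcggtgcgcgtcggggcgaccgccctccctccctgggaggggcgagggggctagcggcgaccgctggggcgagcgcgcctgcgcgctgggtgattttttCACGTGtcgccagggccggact
The E-box of SRM begins 199 bases before the start, that of SLC7A5 130 bases and that of HSPE1 22 bases before it, and LDHA holds 2, at 185 and 87 bases. A match describes these letters only, and no factor's binding was measured here.

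The shares differed most just past the start. An E-box was centred in the first 50 bases of the transcript in 22 of 232 lower promoters (9.48%), against 1.48% of the other genes above background. In the 50 bases before the start the shares were 5.17% and 3.72%. Of those 22 genes, 12 encode factors of ribosome assembly, namely ESF1, IMP4, LTV1, MRTO4, MYBBP1A, NOC3L, NOP14, PAK1IP1, PES1, PNO1, PUM3 and PWP2. Ribosome assembly genes were 40 of the 232 lower promoters. The grouping was noticed after the matches were seen, and 7 of the 12 genes come from a set of rRNA processing factors assembled after the values were seen. Stretches of 30 bases centred on the E-box of 6 of them are given below to show how near to the start it lies, with the E-box in capitals.
PNO1 (chr2:68157885-68157914, plus strand): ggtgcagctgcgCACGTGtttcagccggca
IMP4 (chr2:130342900-130342929, plus strand): ttctcccggaccCACGTGgaagcggcactc
MRTO4 (chr1:19251807-19251836, plus strand): cgtcttccgccgCACGTGgattcagcgcga
PES1 (chr22:30591880-30591909, minus strand): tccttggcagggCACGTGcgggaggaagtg
NOP14 (chr4:2963374-2963403, minus strand): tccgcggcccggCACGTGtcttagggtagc
NOC3L (chr10:94362903-94362932, minus strand): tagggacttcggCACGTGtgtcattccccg
The centres lie 12 bases after the start in PNO1, 18 in IMP4, 17 in MRTO4, 16 in PES1, 18 in NOP14 and 22 in NOC3L.

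**Figure D2:**
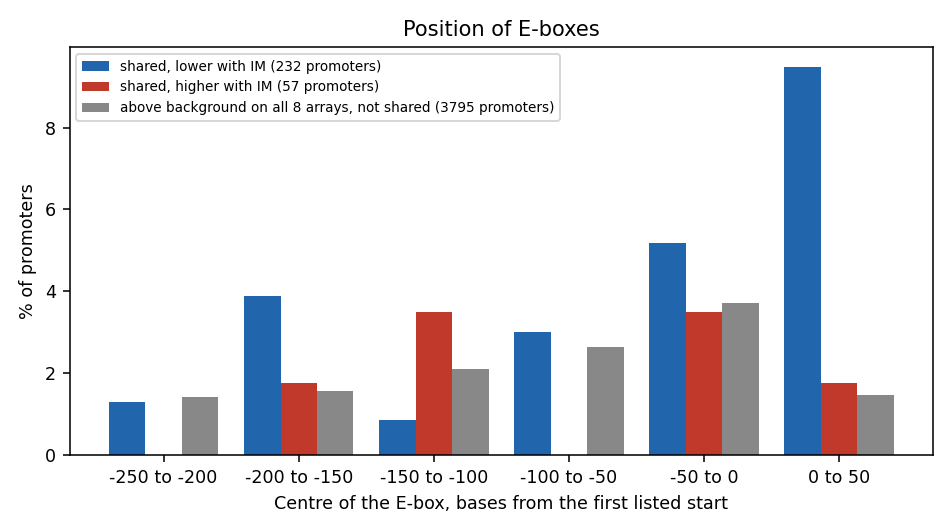
Share of promoters (vertical axis, percent) with an E-box centred in each 50-base bin from 250 bases before to 50 bases after the first listed start (horizontal axis). In the last bin the lower genes reach 9.48% and the other genes above background 1.48%.

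Of the other motifs, some were about as frequent in the lower promoters as elsewhere and some were not. The ETS site CCGGAAGT was in 12.1% of lower, 12.3% of higher and 12.6% of the other promoters of genes above background. The CCAAT box was in 40.9%, 43.9% and 39.3%. The longer E-box TCACGTGA, which contains CACGTG and is known from lysosomal genes, was in none of the 232 lower promoters, in 2 of 57 higher promoters (3.51%) and in 2.79% of the others. The STAT site TTCNNNGAA was in 9.05%, 3.51% and 6.14%. All motifs were searched on both strands.

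MYC itself was shared. It read 12058 and 11202 without and 1918 and 2768 with imatinib in K562, and 20649.5 and 15088 without and 4122 and 3178 with it in KBM5, a mean difference of -2.31 ± 0.21. The falls were of similar size in the lines, with means of -2.33 in K562 and -2.29 in KBM5. MYC was the only shared gene among 12 measured genes of the MYC and MAX network, whose median difference was 0.06.

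The direct outputs of BCR-ABL1 signalling fell less uniformly. Of 22 measured STAT5 targets and cytokine feedback genes, 5 were called lower, 1 higher and 3 were shared, with a list median of -0.25. Over all genes 4.87% were called lower and 2.75% higher. PIM1, a survival kinase, read 13456 and 10367 without and 3872 and 2830.2 with imatinib in K562, and 4088 and 3162 without and 108 and 122 with it in KBM5. CISH, a feedback inhibitor of cytokine receptors, read 1291 and 1001 without and 72.3 and 94.9 with imatinib in K562, and 2986 and 2805 without and 946 and 735 with it in KBM5. SOCS2, an inhibitor of the same family, read 5947 and 2953 without and 699 and 515 with imatinib in K562, and 283 and 366 without and 124 and 116 with it in KBM5. PIM1 went to background in KBM5 and stayed well above it in K562, while CISH went to background in K562 and stayed above it in KBM5. SOCS2 went to background in KBM5, where its readings without imatinib were already nearer to background than in K562. The size of its fall in KBM5 is uncertain.

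Of 20 measured genes of ERK output and feedback, 5 were called lower, none higher and 3 were shared, ETV5, MYC and SPRED2, with a median of -1.42. ETV5, an ETS factor induced by ERK, read 209 and 196 without and 20.7 and 28.1 with imatinib in K562, and 883 and 825 without and 77.7 and 72.7 with it in KBM5. SPRED2, an inhibitor of RAS signalling, read 548 and 540.4 without and 187 and 155 with imatinib in K562, and 534 and 634 without and 192 and 298 with it in KBM5. DUSP6, the phosphatase that ERK induces against itself, was not shared: it read 1925 and 1265 without and 39.2 and 162 with imatinib in KBM5, and was at background on all K562 arrays. SPRY2, a further ERK inhibitor, was above background on 1 array, OR21 in KBM5, and was not shared.

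CCND2, the D-type cyclin that STAT5 and MYC raise, met the limit in K562 only. It read 13376 and 13806 without and 2143 and 2505 with imatinib in K562, and 9889 and 19405 without and 7108 and 8529 with it in KBM5. The kinase genes ABL1 and BCR were not shared. ABL1 read 2316 and 1850.0 without and 3149 and 2329.8 with imatinib in K562, and 2148 and 2203 without and 4060.1 and 3567 with it in KBM5, a difference of 0.60 ± 0.19 (limma adjusted p = 0.11), and BCR differed by 0.58 ± 0.27 (limma adjusted p = 0.247). The arrays cannot tell the fusion transcript from the normal genes.

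**Figure D3:**
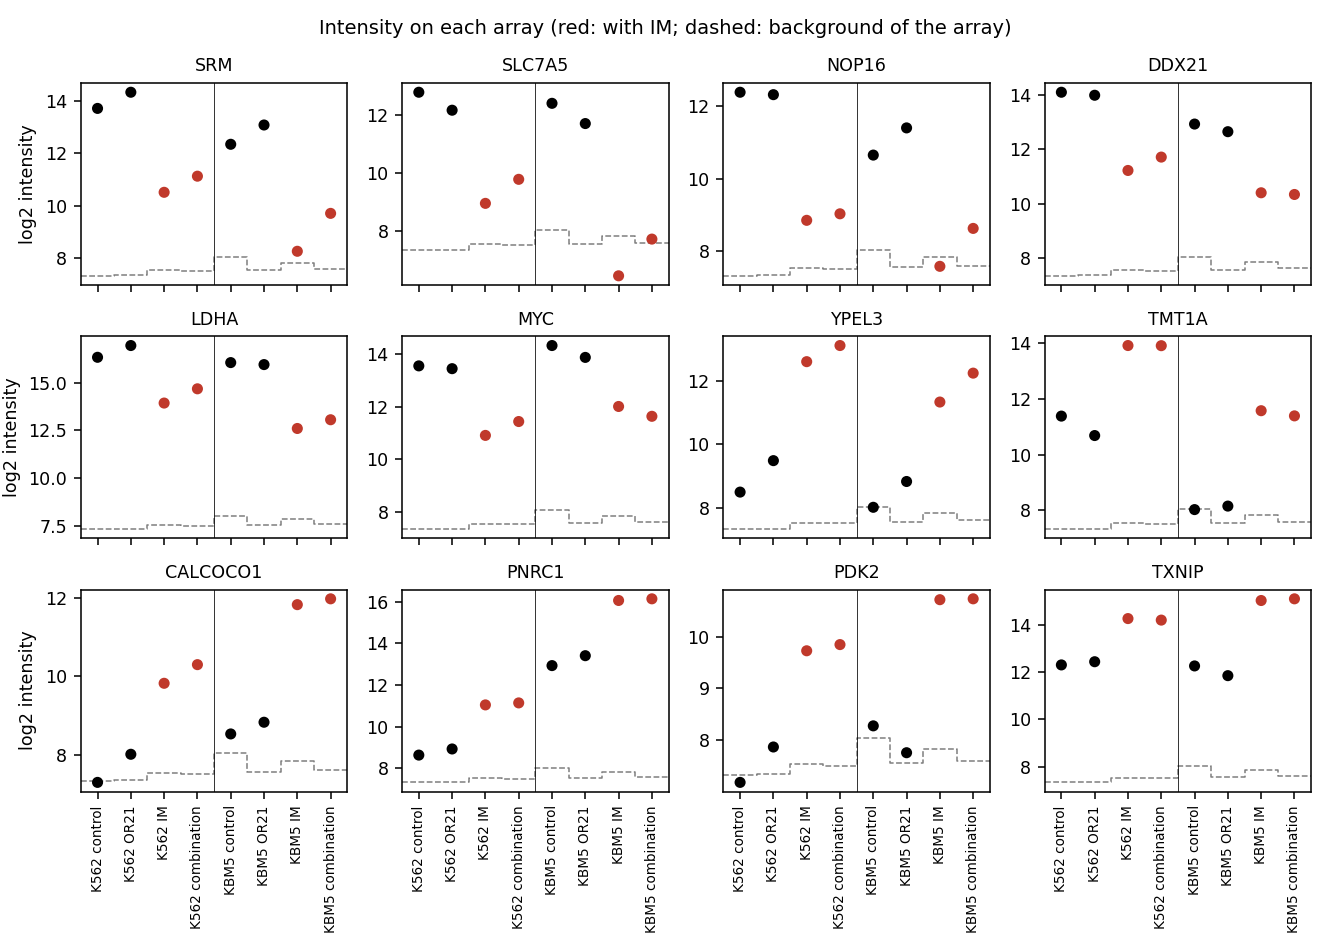
Log2 intensity of 12 shared genes on the 8 arrays, with K562 to the left of each panel and KBM5 to the right. Red points are arrays with imatinib, black points arrays without it and the dashed line each array's background; in the 6 lower genes shown (SRM, SLC7A5, NOP16, DDX21, LDHA and MYC) the red points lie below the black points of their line, and in the other 6 above them.

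Among the single gene lists, nucleolar ribosome assembly held the most shared lower genes, while the metabolic lists together held 33. The lists were chosen with earlier results of these data known. Counts called lower in the lists below stand beside 4.87% called lower over all genes, and counts called higher beside 2.75%. Of 34 measured genes of nucleolar ribosome assembly, 17 were shared lower and 25 were called lower, none were higher, and the median difference was -1.46 against 0.06 over all genes. NOP16, DDX21, MRTO4, NOLC1 and LYAR came first, at -3.16, -2.51, -2.48, -2.24 and -2.37. MRTO4, an assembly factor of the large subunit, read 1287 and 1455 without and 217 and 234 with imatinib in K562, and 720.2 and 568 without and 116 and 133 with it in KBM5. NOLC1, a chaperone of small nucleolar particles, read 16221 and 16609.7 without and 3896 and 3259.6 with imatinib in K562, and 6349.9 and 5588 without and 1637 and 932 with it in KBM5. With imatinib NOLC1 stayed above background on all 4 arrays and MRTO4 on the K562 arrays. A further set of rRNA processing factors was assembled after the values were seen, and 31 of its 39 measured genes were shared lower, so its count supports nothing by itself. It includes the small-subunit factors WDR3, UTP11 and PWP2, the large-subunit factors RPF2, MAK16 and BRIX1, and the acetyltransferase NAT10. Together with the list, 48 shared lower genes belong to ribosome assembly.

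The structural proteins of the ribosome behaved otherwise. Of 54 measured cytosolic ribosomal protein genes none was shared, 3 were called lower and the median difference was 0.20. Of 74 mitochondrial ribosomal protein genes, 6 were shared lower (MRPL24, MRPS2, MRPL3, MRPS17, MRPL36 and MRPL42), 26 were called lower and the median was -0.72. Both families were chosen after the values were seen. Mitochondrial ribosomal genes differed from the cytosolic family in median by close to 1 log2 unit, a description with no test.

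RNA polymerases and the translation machinery fell in part. Of 25 genes of RNA polymerases I and III, 11 were called lower, 1 was called higher and 4 were shared lower, POLR3G, POLR1A, POLR3K and POLR3B. POLR1A, the largest subunit of polymerase I, read 2867 and 3189 without and 727 and 677 with imatinib in K562, and 3637 and 5375 without and 1312 and 1263 with it in KBM5. Of 16 aminoacyl-tRNA synthetases, 9 were called lower and 4 shared, YARS1, FARSB, IARS1 and GARS1, with a median of -0.95. Of 16 translation initiation genes, 11 were called lower and 4 shared, EIF2S1, EIF1AX, EIF5A and EIF4EBP1, with a median of -1.13. EIF4EBP1, which holds the cap-binding protein eIF4E inactive, fell with the initiation factors, at -1.88 ± 0.33. YARS1, which charges tyrosine tRNA, read 6650.2 and 5700.1 without and 1362 and 1519 with imatinib in K562, and 4962 and 4544 without and 899.9 and 1079.8 with it in KBM5.

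Protein folding and import into mitochondria fell in a larger share. Of 20 genes of mitochondrial import and folding, 18 were called lower and 10 were shared, the same share as in the nucleolar list, with a median of -1.73. TIMM13, a chaperone of the intermembrane space, read 3324 and 4034 without and 599 and 939 with imatinib in K562, and 3348 and 3944 without and 476 and 795 with it in KBM5. HSPE1, the co-chaperonin of mitochondrial HSP60, read 13930.2 and 10978 without and 3876 and 3127 with imatinib in K562, and 16409 and 20159 without and 1293 and 2259.6 with it in KBM5. TOMM40, the channel of the outer membrane, read 2488 and 3244 without and 731 and 709 with imatinib in K562, and 1622 and 1919 without and 268 and 260.2 with it in KBM5. TFAM, which packs and transcribes mitochondrial DNA, differed by -1.83 ± 0.21, and HSPA9, the mitochondrial HSP70, by -1.90 ± 0.20. In the cytosol, 7 of 12 chaperonin and folding genes were called lower and 3 shared, STIP1, HSPH1 and CCT5. Of 8 protein arginine methyltransferase genes, 4 were called lower, 1 higher and 3 were shared: PRMT1, PRMT5 and its partner WDR77, at -2.42, -2.02 and -1.83. Of 15 nuclear transport genes, 9 were called lower and 2 shared, the exportin XPO5 and the pore protein NUP107.

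Metabolic genes made the second block. Of 19 genes of purine and pyrimidine synthesis, 11 were called lower and 9 shared, with a median of -1.45. DCTPP1, which cleaves surplus dCTP, read 5608 and 5199 without and 993 and 1326 with imatinib in K562, and 1775 and 1720.2 without and 177 and 290.0 with it in KBM5. CTPS1, which makes CTP, read 2505 and 2788 without and 861 and 867 with imatinib in K562, and 1833 and 2122 without and 295 and 276 with it in KBM5. CAD, which opens pyrimidine synthesis, was at background on all arrays with imatinib and at least 2.72-fold lower. PFAS and GART, of purine synthesis, differed by -1.86 ± 0.28 and -1.48 ± 0.17.

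Of 13 genes of serine, glycine and folate-linked carbon metabolism, 6 were called lower and all of these were shared. PSAT1, of serine synthesis, read 11521 and 7386 without and 2002 and 1983 with imatinib in K562, and 16423 and 10285 without and 941 and 655 with it in KBM5. PHGDH, the entry enzyme of the same route, read 4052 and 2429 without and 427 and 805 with imatinib in K562, and 4855 and 2973 without and 114 and 51.1 with it in KBM5. In KBM5 PHGDH ended at background and in K562 above it. The folate enzymes MTHFD1L, MTHFD1 and MTHFD2 differed by -2.39 ± 0.44, -2.04 ± 0.35 and -2.19 ± 0.41.

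Of 21 genes of glucose uptake and glycolysis, 10 were called lower and 6 shared: SLC2A3, SLC2A14, LDHA, PGAM1, ENO1 and PGK1. PGAM1, a late glycolytic mutase, read 15659 and 14136 without and 4496 and 4355 with imatinib in K562, and 10526 and 12431 without and 1157 and 2179 with it in KBM5. ENO1, the enolase next to it, read 258678 and 213546 without and 83363 and 83325 with imatinib in K562, and 277673 and 257164 without and 90591 and 103920.0 with it in KBM5. Both glycolytic enzymes were bright on all 8 arrays. Of 20 genes of cholesterol and fatty acid synthesis, 10 were called lower and 5 shared. DHCR7, of the last step of cholesterol synthesis, read 20575 and 16817 without and 5467 and 5515 with imatinib in K562, and 22412 and 19083 without and 649 and 1018 with it in KBM5, and FASN, fatty acid synthase, read 3947 and 3534 without and 1584 and 1069.6 with imatinib in K562, and 2548 and 2289.8 without and 134 and 134 with it in KBM5. With imatinib FASN was at background in KBM5 and DHCR7 above it on every array. Of 15 amino acid transporters, 4 were called lower and the same 4 were shared, SLC7A5, SLC7A1, SLC1A5 and SLC38A1. Of 12 polyamine genes SRM alone was shared, and the median of that list was -0.06.

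**Figure D4:**
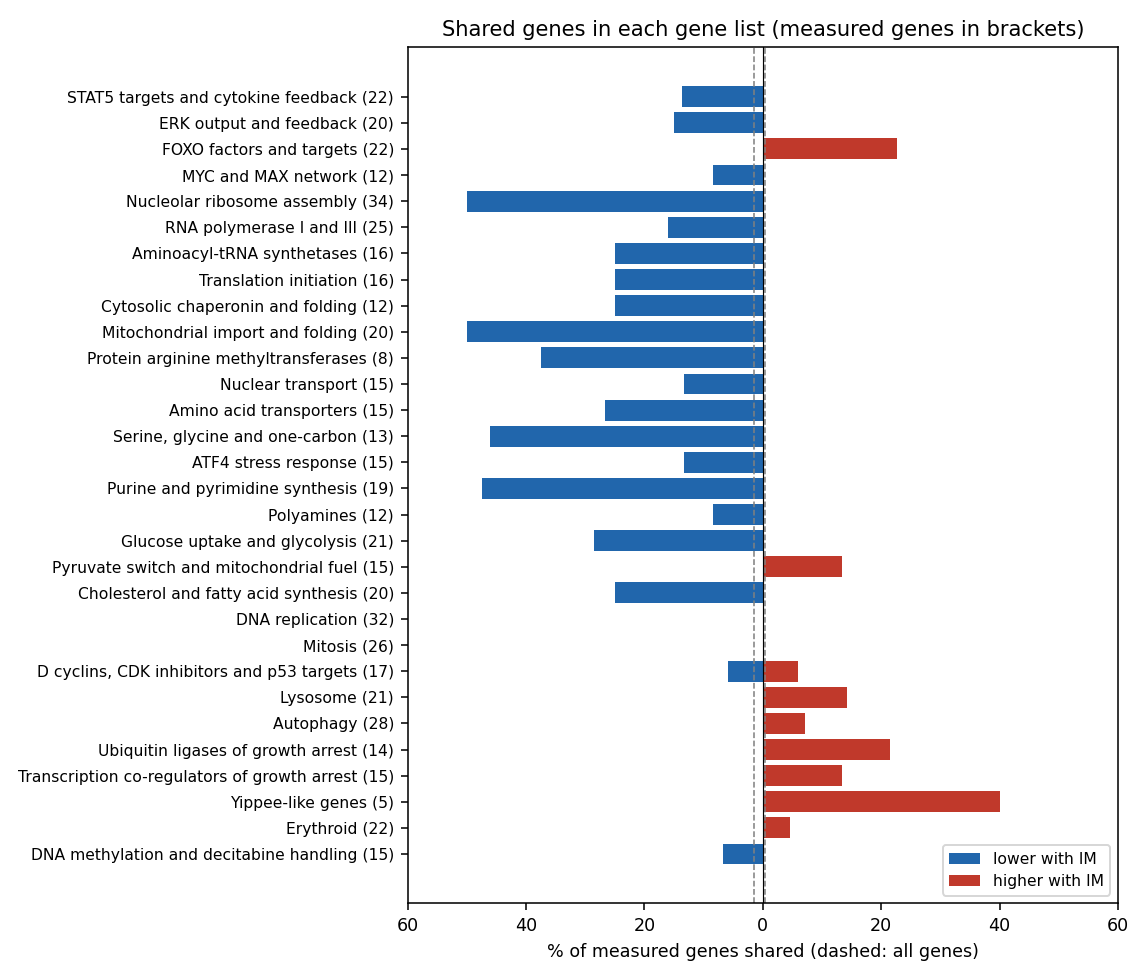
Share of the measured genes of each list (measured number in brackets) that were shared lower (blue, to the left) or shared higher (red, to the right) with imatinib, in percent. Dashed lines give the shares over all genes, 1.55% and 0.401%. Of all genes, 9227 were at background on all 8 arrays and could not meet the rule. Mitochondrial import and nucleolar ribosome assembly extend farthest to the left, with 10 of 20 and 17 of 34 genes.

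None of 32 measured DNA replication genes and none of 26 mitosis genes was shared, which is little below the 1.55% of all genes that were shared lower and says nothing of the cycle by itself. What the lists show is a difference in median between the lines. The replication list had a median difference of -0.44 in K562 and -3.21 in KBM5, and the mitosis list -0.20 and -2.36. With the lines pooled, 6 replication and 4 mitosis genes were called lower, beside 4.87% of all genes. Among the regulators of the cycle CDC25A, the phosphatase that opens S phase, was shared and read 550.5 and 664 without and 151 and 222 with imatinib in K562, and 518 and 657 without and 23.1 and 35.7 with it in KBM5. UBE2S, ANAPC1, PBK and CENPW, shared lower genes with roles in mitosis that are on neither list, were noticed after their values were seen. The growth lists moved in both lines, with medians for nucleolar assembly of -1.40 in K562 and -1.35 in KBM5. Whether fewer cycling cells contributed to the falls in KBM5 was not tested.

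Of the 71 higher genes 46 were in no list or family. The others were mostly of the FOXO and catabolic lists, with PDK2 and CPT2 of mitochondrial fuel use and the erythroid gene ERMAP among them. YPEL3, a yippee-like protein that restrains growth, came first and read 361 and 716 without and 6189.8 and 8797 with imatinib in K562, and 259 and 454 without and 2567 and 4820.4 with it in KBM5. YPEL3 rose in all 4 pairs by more than 3 log2 units. YPEL5, of the same family, read 981 and 1285 without and 8923 and 9946 with imatinib in K562, and 2272 and 2135 without and 8889 and 14918 with it in KBM5. Of the 5 yippee-like genes, 3 were called higher and these 2 were shared. TP53INP1, a stress protein that promotes autophagy, was at background on the 4 arrays without imatinib and read 468 and 446 with it in K562 and 909 and 943 in KBM5, at least 3.42-fold higher.

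Of 22 FOXO factors and targets, 9 were called higher, none lower and 5 were shared, with a median of 1.01. Over all genes 2.75% were called higher. TXNIP, which binds thioredoxin and restrains glucose uptake, read 5072 and 5571 without and 19783 and 18914 with imatinib in K562, and 4922 and 3701 without and 33628 and 35333 with it in KBM5. CITED2, a co-regulator of p300, read 814 and 1224 without and 5788 and 4206 with imatinib in K562, and 3430.3 and 4594 without and 8675 and 10811 with it in KBM5. CCNG2, a cyclin of cell cycle exit, read 109 and 104 without and 334 and 324 with imatinib in K562, and 1348 and 1059 without and 3602 and 2433 with it in KBM5. The TXNIP level without imatinib was alike in the lines, and its level with imatinib was higher in KBM5. The forkhead motif GTAAACA was in 4 of 57 higher promoters (7.02%), those of YPEL3, TXNIP, HBP1 and EZH1, in 3.88% of lower promoters and in 2.37% of the other genes above background. The promoters of TXNIP and HBP1, a repressor of cell cycle genes, are shown because their motif, in capitals, lies before the start.
TXNIP (chr1:145996580-145996829, minus strand): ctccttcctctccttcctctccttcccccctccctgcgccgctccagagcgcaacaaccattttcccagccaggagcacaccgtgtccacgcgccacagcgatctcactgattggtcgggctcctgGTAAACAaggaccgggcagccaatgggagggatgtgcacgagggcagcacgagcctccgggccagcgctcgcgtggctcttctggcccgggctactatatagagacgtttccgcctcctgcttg
HBP1 (chr7:107168753-107169002, plus strand): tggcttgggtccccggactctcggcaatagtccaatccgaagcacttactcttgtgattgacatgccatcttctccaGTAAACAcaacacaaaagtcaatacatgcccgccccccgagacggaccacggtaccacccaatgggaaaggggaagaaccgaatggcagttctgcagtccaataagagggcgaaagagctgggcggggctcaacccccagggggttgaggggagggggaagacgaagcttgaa
The motif begins 124 bases before the start in TXNIP and 173 bases before it in HBP1. With 4 promoters the share rests on few genes.

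The shared genes of the catabolic lists were all higher with imatinib. Over the lists for lysosome, MiT factors, autophagy, growth-arrest ubiquitin ligases, co-regulators and yippee-like genes, 98 genes were measured, 12 were shared higher and none lower. Over all genes the shares were 0.401% higher and 1.55% lower, so the absence of lower genes says little. The share called higher over all genes was 2.75%. YPEL3 and YPEL5 are also counted among the FOXO targets. LAPTM4B, the lysosomal membrane protein that was shared lower, is on none of these lists. Of 21 lysosomal genes 5 were called higher and 3 shared, with a median of 0.58. ASAH1, acid ceramidase, read 1270.0 and 2139 without and 6049 and 7717 with imatinib in K562, and 1916 and 4062 without and 10679.5 and 11491 with it in KBM5. TPP1, a lysosomal peptidase, read 583 and 701 without and 1849 and 1475 with imatinib in K562, and 1528 and 1451 without and 6036 and 5108 with it in KBM5, and HEXA, of ganglioside breakdown, differed by 1.16 ± 0.16. Of 12 lysosomal glycosidases, a family chosen after the values were seen, MANBA, MAN2B2, HEXA and FUCA1 were shared, and the first of them read 592 and 639 without and 1685 and 1785 with imatinib in K562, and 1946 and 1635 without and 12654 and 9018 with it in KBM5.

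Of 28 autophagy genes 6 were called higher and 2 shared, TP53INP1 and CALCOCO1. CALCOCO1, a receptor for autophagy of the endoplasmic reticulum, read 157 and 257 without and 904 and 1257 with imatinib in K562, and 369 and 454 without and 3633 and 4027 with it in KBM5. Of 14 ubiquitin ligase genes 5 were called higher and 3 shared. ZER1, a substrate receptor of a cullin ligase, read 184 and 262 without and 833 and 1144 with imatinib in K562, and 176 and 138 without and 1160.4 and 1567 with it in KBM5. FBXL20, an F-box protein, read 468 and 398 without and 1627 and 1399 with imatinib in K562, and 201 and 287 without and 994 and 1035 with it in KBM5, and KLHL24 differed by 1.99 ± 0.16. PNRC1, a nuclear receptor co-activator, read 399 and 489 without and 2120.3 and 2266 with imatinib in K562, and 7841 and 10905 without and 68444 and 72298 with it in KBM5, and with HBP1 it made 2 shared of 15 co-regulators.

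PDK2, which switches off pyruvate dehydrogenase, read 145 and 234 without and 849 and 922 with imatinib in K562, and 310.1 and 216 without and 1683 and 1703 with it in KBM5. CPT2, of fatty acid import into mitochondria, differed by 1.25 ± 0.20, and these were the 2 shared genes of 15 on the pyruvate and mitochondrial fuel list, whose median was 0.22. TMT1A, a membrane methyltransferase, read 2664 and 1644 without and 15372 and 15316 with imatinib in K562, and 261 and 285 without and 3047 and 2679 with it in KBM5, the third by smallest pair difference. ICA1, RAB3D, SLC35E2B, STARD10 and DNAJC4 completed the first 15 higher, with mean differences of 2.13, 2.17, 2.14, 2.00 and 2.15. RAB3D, a small GTPase of secretory vesicles, read 97.3 and 75.8 without and 338 and 353 with imatinib in K562, and 451 and 567 without and 2886 and 2225 with it in KBM5. STARD10, a lipid transfer protein, read 859 and 890.0 without and 3398 and 3766 with imatinib in K562, and 99.9 and 193 without and 482 and 615 with it in KBM5. None of these genes overlapped between arrays with and without imatinib within a line, which follows largely from the rule that chose them.

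**Figure D5:**
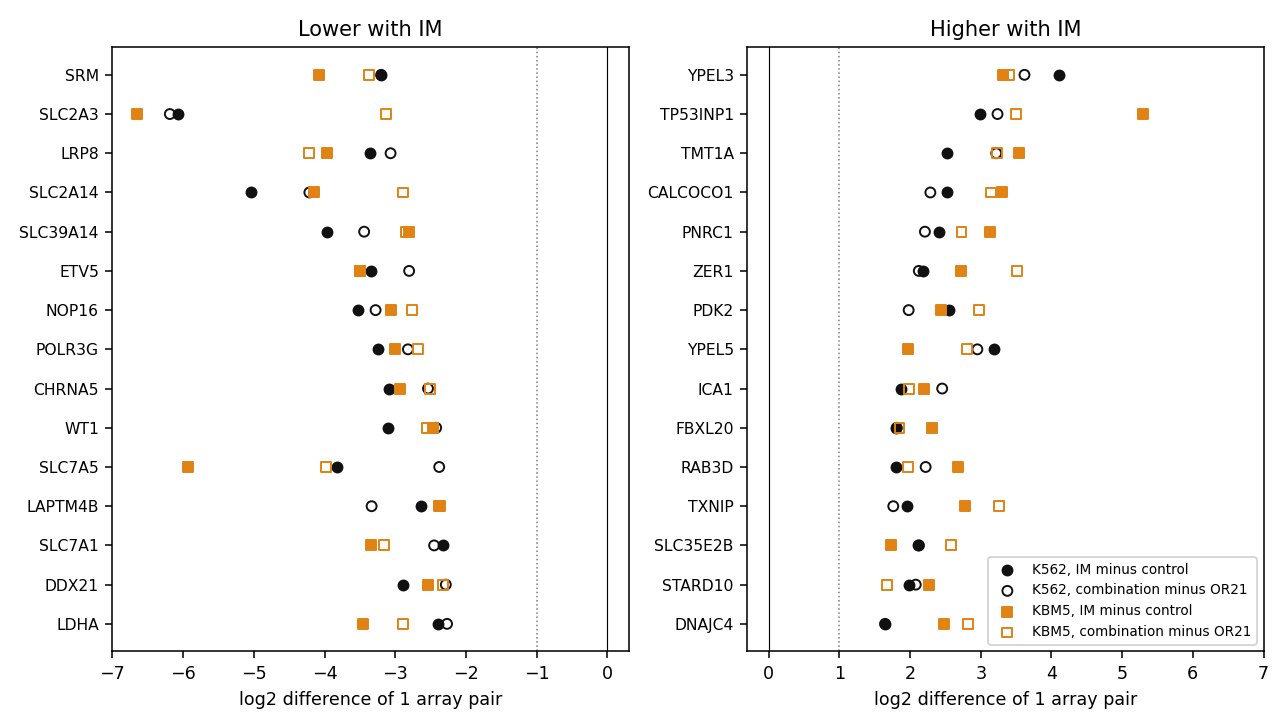
Log2 difference in each of the 4 array pairs (horizontal axis) for the 15 lower genes (left) and 15 higher genes (right) with the largest smallest-pair difference. Circles are K562 and squares KBM5, filled for IM minus control and open for combination minus OR21; dotted lines mark the limit of 1 log2.

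A difference in size between the lines was called for a minority of the shared genes. A fit with an imatinib term for each line called a difference between them for 1796 of all genes (10.2%, limma adjusted p under 0.05), 5.25% with the more positive difference in KBM5 and 4.9% with the more negative one. Among the shared genes it was called for 6 of 71 higher (8.45%) and 38 of 274 lower (13.9%), shares near that of all genes. The share of all genes includes the 9227 at background on all 8 arrays. The rule asks for a 2-fold move in both lines, so it left out genes that moved in 1 line alone. Of the 38 lower genes, 35 fell more in KBM5, and CISH, SOCS2 and GRWD1 fell more in K562. In all, 182 of 274 lower and 44 of 71 higher genes had the larger mean move in KBM5. The counts of 38 lower and 6 higher genes move with the fit. Leaving out the control or the IM array of K562 gave 21 and 1, and leaving out its OR21 or its combination array gave 14 and 2. Testing the brighter genes only gave 53 and 13, an intensity trend with robust moderation gave 62 and 12, and a constant of 16 added before the log gave 46 and 12. With the brighter genes only, the difference was called for 1923 of the 8843 genes tested.

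Of the 35 lower genes called as falling more in KBM5, 12 were in a metabolic list, 6 in another list and 17 in none. Such a call was made for 5 of the 6 shared genes of serine, glycine and folate-linked metabolism. It was made for 4 of the 5 shared cholesterol and fatty acid genes and 2 of the 9 shared purine and pyrimidine genes. No line difference was called for the 6 shared glycolytic genes or the 4 shared amino acid transporters. Of the 17 shared nucleolar genes 1, GRWD1, was called, as falling more in K562. A difference that was not called is not an equal fall, and the fit had 2 residual degrees of freedom. The difference for PHGDH, KBM5 minus K562, was -3.22 ± 0.50 (limma adjusted p = 0.00278). For DHCR7 it was -2.91 ± 0.38 (limma adjusted p = 0.00132), and DHCR7 was above background on all 8 arrays. PIM1 differed by -3.13 ± 0.34 (limma adjusted p = 0.000539) and CISH, in the other direction, by 1.98 ± 0.37 (limma adjusted p = 0.00752). Where a gene reached background in 1 line, as PHGDH, PIM1 and SOCS2 did in KBM5 and CISH in K562, the size of its difference is uncertain.

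Among the higher genes ERMAP, an erythroid membrane protein, rose more in K562, from 408 and 1619 to 10541 and 9809, than in KBM5, from 96.5 and 171 to 310.1 and 349, and the difference was -2.29 ± 0.58 (limma adjusted p = 0.0329). Without imatinib ERMAP was at background on both KBM5 arrays, so the size of its KBM5 rise and of the line difference is uncertain. ERMAP was the 1 shared gene of 22 erythroid genes, whose list had a median of 2.62 in K562 and -0.15 in KBM5. ABCA7, a lipid transporter, and FUCA1, the lysosomal fucosidase, rose more in KBM5, by 1.99 ± 0.43 (limma adjusted p = 0.0154) and 1.95 ± 0.34 (limma adjusted p = 0.00526).

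Averaged over both lines and over arrays with and without imatinib, OR21 moved the shared genes by -0.62 to 0.85 log2 units. The limit that defines the shared genes applies to single array pairs, and single OR21 pairs could differ by more than 2-fold. In K562 without imatinib ERMAP read 408 in control and 1619 with OR21, and SOCS2 read 5947 and 2953. The effect of OR21 over both lines, a contrast the rule did not use, was called for no gene in limma, and 622 genes (3.52%) had an unadjusted p under 0.05. Its median was 0.04 in the higher and 0.05 in the lower shared genes, against -0.02 over all genes. Among the shared genes 5 of 71 higher (7.04%) and 10 of 274 lower (3.65%) had an unadjusted p under 0.05. The largest effects were those of SRM at 0.85 ± 0.22, YPEL3 at 0.80 ± 0.20, FUCA1 at 0.75 ± 0.42 and RDH10, a retinol dehydrogenase, at 0.74 ± 0.47. SLC2A14 and SLC2A3 had the lowest, at -0.62 ± 0.28 and -0.56 ± 0.52. SRM and YPEL3 were higher with OR21 whether imatinib was present or not in both lines, and the unadjusted limma p of YPEL3 was 0.00486.

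No gene's imatinib response was called different with OR21 present. The interaction, combination minus OR21 less IM minus control, was called for 0 genes in limma, and 274 genes (1.55%) had an unadjusted p under 0.05. In the shared genes 1 higher gene, KLHL24 at 0.85 ± 0.32, and 3 lower genes, IMP4 at 0.92 ± 0.36, VASP at 1.25 ± 0.38 and SNRPC at 0.96 ± 0.38, had an unadjusted p under 0.05. The median interaction was -0.13 in the higher and 0.16 in the lower genes, against 0.00 over all genes and 0.06 over genes above background on all 8 arrays. With OR21 present, the rise was smaller in 37 of 71 genes in K562 and 45 of 71 in KBM5, and the fall was smaller in 166 of 274 and 178 of 274. The control and IM arrays that the rule used enter these counts, so they are a description.

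The limit cut through a continuum. The higher genes just inside it were DHTKD1, FUCA1 and CCS, with smallest pair differences of 1.0003, 1.01 and 1.01, and those just outside were ATG14, NAGK and C1RL, at 0.997, 0.994 and 0.991. The lower genes just inside were MRPL42, GSPT1 and VDAC1, at -1.001, -1.003 and -1.008, and those just outside were SCARB1, RBM28 and TEX30, at -0.9996, -0.998 and -0.998. With the brighter side above background, 33 more higher genes and 56 more lower genes had a smallest pair difference between 0.9 and 1. Of the 345 genes, 219 were above background on all 8 arrays, 39 of the higher and 180 of the lower. The dim side was at background on all 4 arrays for 5 higher and 17 lower genes, whose differences are bounds. For a further 27 higher and 77 lower genes the dim side was above background on 1 to 3 arrays only, so the size of their differences is uncertain as well. Such higher genes include ZER1, KAT2B and JAK2, at background without imatinib in KBM5, and RAB3D and CCNG2, at background without it in K562.

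Many shared genes lay outside the lists, and those named here were chosen after their values were seen. Among the lower genes, GAL, the neuropeptide galanin, read 1127 and 1024 without and 204 and 220.1 with imatinib in K562, and 1560.2 and 3056 without and 42.6 and 105 with it in KBM5. FKBP4, a co-chaperone of steroid receptors, read 4950.2 and 6054 without and 801 and 1421 with imatinib in K562, and 8369 and 7884 without and 1135 and 1153 with it in KBM5. FKBP4 stayed above background on all 8 arrays, and GAL fell to background in KBM5. MIF, a cytokine, read 11687 and 11778 without and 2741 and 3711 with imatinib in K562, and 30325 and 24204 without and 1122 and 2955 with it in KBM5. CYCS, cytochrome c, read 53333 and 47789 without and 14104 and 14362 with imatinib in K562, and 29076 and 35777 without and 4358 and 5374 with it in KBM5. AEN, a nuclease of the p53 response, and PUS7, a pseudouridine synthase, differed by -2.70 ± 0.22 and -2.34 ± 0.18. RUVBL1 and RUVBL2, partner ATPases of chromatin remodelling and snoRNP assembly, fell together, at -2.03 ± 0.19 and -1.84 ± 0.21. Of 12 snRNP protein genes 4 were shared, SNRPB, SNRPD3, SNRPA1 and SNRPC, and the median of that family was -1.34.

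Among the higher genes outside the lists, several act on chromatin or signalling. KAT2B, a histone acetyltransferase, read 399 and 626 without and 3705 and 2774 with imatinib in K562, and 151 and 169.9 without and 413 and 516 with it in KBM5. EZH1, a methyltransferase of Polycomb, read 222 and 347 without and 1680.2 and 927 with imatinib in K562, and 384 and 308 without and 915 and 724 with it in KBM5. JAK2, the kinase upstream of STAT5 at cytokine receptors, read 461 and 308 without and 1217 and 664 with imatinib in K562, and 113 and 104 without and 464 and 338 with it in KBM5. Without imatinib KAT2B and JAK2 were at background on both KBM5 arrays, so the size of their rise there is uncertain. HDAC5, KDM2B and ING4, also of chromatin, differed by 1.32 ± 0.19, 1.34 ± 0.20 and 1.40 ± 0.18. NCOA4, the receptor for autophagy of ferritin, read 3919 and 5536 without and 16641 and 13651 with imatinib in K562, and 1177 and 2181 without and 4592 and 6823 with it in KBM5, and CYBRD1, an iron reductase, read 399 and 550.1 without and 2717 and 2909.8 with imatinib in K562, and 391 and 514 without and 1326 and 1584 with it in KBM5. FURIN, a protease of the secretory route, differed by 1.83 ± 0.22. CASTOR3P and HERC2P3 are pseudogenes and PSMG3-AS1 is antisense to PSMG3, so their signal may come in part from related transcripts.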

How the data were processed

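RNA of K562 and KBM5 cells was biotin-labelled and hybridised to 1 array per line and treatment, 8 in all, per the labels' protocols. The authors deposited 1 linear intensity per probe set for 24351 probe sets of each array. How those intensities were summarized and normalized, and with which software, is not given in the sources used here, so any scaling between arrays is unknown. GEO's platform annotation named 17709 probe sets with 1 symbol, giving 17687 genes, the brightest probe set standing for each of 20 genes with several. The 3739 transcript clusters without a name were kept apart. All differences are of log2 intensity as deposited by the authors, with no further scaling.

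The fit used limma 3.58.1 in R 4.3.3 with line and treatment as terms (3 residual degrees of freedom). The imatinib effect is the mean of IM minus control and combination minus OR21, and OR21 and interaction contrasts came from the same fit. The line difference came from a fit with OR21 and imatinib terms per line (2 residual degrees of freedom). The p-values were Benjamini-Hochberg adjusted over all genes and called under 0.05. The imatinib contrast of the fit over both lines and the rule of the 4 pairs were run on simulated data. The fit per line and the OR21 and interaction contrasts were not.

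The members, gene lists and motifs were chosen with earlier results of these data known. Named genes are the 15 first in each direction by smallest pair difference, up to 5 shared members of each list, the 3 genes on either side of the limit, up to 3 shared genes each way with the largest OR21 effect, line difference or interaction, and MYC, PIM1, CISH, DUSP6, SPRY2, CCND2, ABL1 and BCR. Genes named beyond these were chosen after their values were seen. The precision is limited by the number of arrays. Alternatives covered the size limit, the background, quantile normalization, an added constant of 16, the probe set rule, the model and leaving out each array.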

Additional observations from a re-analysis of the deposited data

Results flagged for a closer look

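The fall of 38 shared lower genes and the rise of 6 shared higher genes differed between the lines by the test of the difference itself (limma adjusted p under 0.05), against 10.2% of all genes. Among the lower genes the largest differences, KBM5 minus K562, were those of PHGDH at -3.22, PIM1 at -3.13, DHCR7 at -2.91, GAL at -2.69 and the sterol-regulated membrane protein TMEM97 at -2.69. GAL read 204 and 220.1 with imatinib in K562 and 42.6 and 105 in KBM5, where background was reached. TMEM97 read 11050.2 and 10121 without and 4544 and 4326 with imatinib in K562, and 4658 and 3693 without and 339 and 214 with it in KBM5. Among the higher genes the differences were ERMAP at -2.29, ABCA7 at 1.99, FUCA1 at 1.95, the pseudogene HERC2P3 at 1.42 and the serine carboxypeptidase SCPEP1 at -1.39. ERMAP was at background on both KBM5 arrays without imatinib, so the size of its difference is uncertain. SCPEP1 read 314 and 415 without and 2048 and 2322 with imatinib in K562, and 2048 and 2460.2 without and 4349 and 6191 with it in KBM5. ABCA7 read 1211 and 2949 without and 6673 and 7081 with imatinib in K562, and 354 and 270.2 without and 6032 and 3324 with it in KBM5.

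Outside the named genes, 42 of the 3739 transcript clusters without a gene name met the rule of the shared response, 13 higher and 29 lower with imatinib.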

How the results depend on the processing

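The number of shared genes moved with the limits. With 1.5-fold in each pair 269 genes were higher and 625 lower, and with 3-fold 18 and 63. With background at the 99th percentile of the negative controls 31 and 119 were left. Raising values to background before the differences were taken left 54 and 242. After quantile normalization 121 were higher and 201 lower, so that 37.6% of the shared genes were higher in place of 20.6%, and all 71 higher and 199 of the 274 lower genes were kept. No list median above 0.1 in size changed its sign under quantile normalization. The fit over both lines then called 598 genes higher and 631 lower, in place of 487 and 862, so the excess of lower genes depends on the scaling. Leaving out an array removes its pair, and 90 to 118 higher and 319 to 366 lower genes then met the rule, including all 345. Imatinib calls over all genes fell from 1349 to between 115 and 557 without 1 array (115 without KBM5 OR21, 134 without KBM5 IM, 200 without K562 OR21, 214 without KBM5 combination, 288 without K562 combination, 311 without KBM5 control, 512 without K562 IM and 557 without K562 control), and rose to 2342 with line and imatinib as the only terms. Without 1 array the line difference was called for 611 to 1804 genes, with 611 when the control or the IM array of K562 was left out and 718 when its OR21 or its combination array was. With all arrays and another setting it was called for 1789 to 2208. OR21 and interaction calls were 0 under every setting run. Of the first 30 genes, 27 were called under every setting. TP53INP1 and TXNIP were not called without KBM5 IM, nor DNAJC4 without KBM5 IM or KBM5 OR21, and no direction reversed. The cause of these changes was not tested. With the 4 array pairs as blocks 1554 genes were called (584 higher and 970 lower), among them all 345. The labels carry no replicate numbers. The number of arrays limits the precision, and signal near background limits the size of the falls.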
